A study of Mus musculus with 6 samples.

Results

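The baseline expression programme of normal megakaryocyte progenitors was described from 3 bead arrays out of a series of 6. The 3 were the arrays titled as carrying wild-type Scl, and on them 14276 of 46632 array probes, 30.6%, were detected on every array and ordered by their mean normalized log2 value. The 3 RNA samples, 1 for each array, came from megakaryocyte progenitors sorted from the bone marrow of mice aged 3 to 4 months, of the strain mix 129SVxC57Bl/6. These animals were wild-type at the Scl locus (gene symbol Tal1) and carried a transgene in which the Pf4 promoter, a promoter of megakaryocytes and their progenitors, drives Cre recombinase. The other 3 arrays of the series also came from Cre carriers and were not compared here. The labels give neither the sorting gate nor whether a sample was 1 animal or a pool of several.

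Megakaryocytes are the large bone marrow cells that shed platelets. As they mature they copy their DNA without dividing, store clotting and growth proteins in alpha granules and small molecules in dense granules, and place adhesion and agonist receptors on a membrane that will be split among platelets. The SCL protein binds DNA with an E protein partner and is bridged by LMO2 and LDB1 to GATA factors, and FLI1, RUNX1 and NFE2 act beside this complex in the lineage.

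A probe was called detected where 1 minus its deposited detection score was under 0.05. Rank 1 is the brightest of the detected probes, and a percentile of 100 the brightest. A gene was placed by its brightest detected probe, so the 8166 detected genes, 46.1% of the 17711 genes named on the array, had a median percentile of 60.5. In all, 1047 detected genes, 12.8%, lay in the brightest 10% of the detected probes, which began at a log2 value of 11.03. Brightness depends on how well each probe binds and amplifies as well as on the amount of mRNA, so the order below is an order of probe brightness, not of transcript number. In these bulk samples, RNA from a few cells of a type and a low level in every cell cannot be told apart.

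Detection was similar on the 3 arrays, with 16178, 15895 and 15644 probes on arrays 1, 2 and 3. Array 3 stood apart from the others. Between arrays 1 and 2, 4 detected probes differed by more than 1 log2 unit, against 124 between arrays 1 and 3 and 112 between arrays 2 and 3. The median SD of a detected probe over the 3 arrays was 0.119 log2 units. Over pairs of arrays it was 0.0671 without array 3, 0.112 without array 2 and 0.114 without array 1. Of the 165 probes whose 3 values spanned more than 1 log2 unit, array 3 was the farthest from the others in 147.

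**Figure D1:**
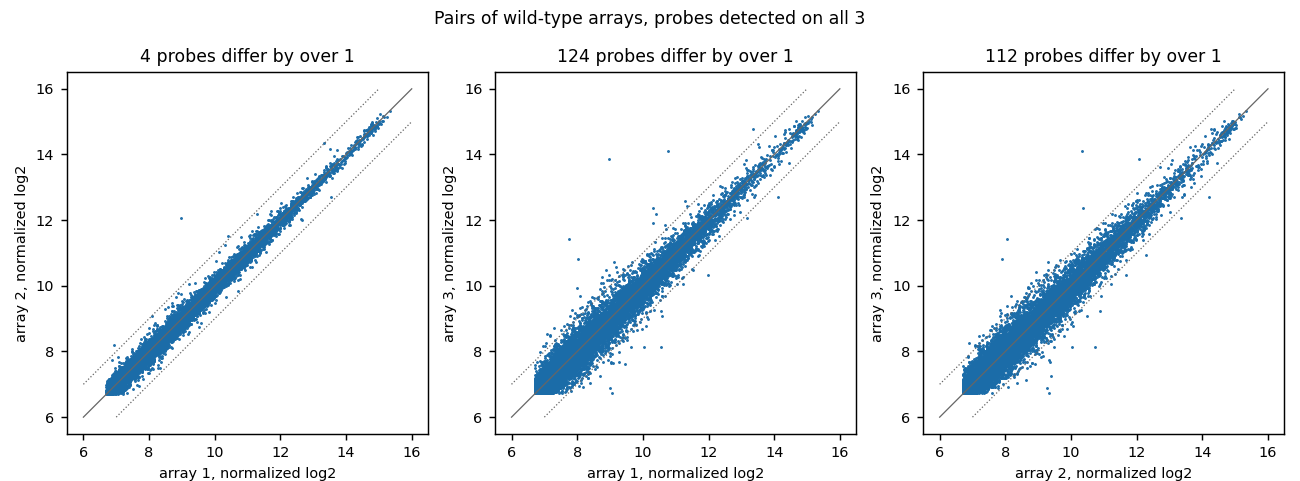
Normalized log2 value of each probe detected on all 3 wild-type arrays, 1 point a probe, for each pair of arrays; the solid line marks equal values and the dotted lines a difference of 1. The cloud is narrow for arrays 1 and 2 (4 probes beyond the dotted lines) and wider for both pairs with array 3 (124 and 112 probes).

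The 5 lineage markers were detected on every array, and 4 of them lay in the brightest 10%. Vwf, which encodes von Willebrand factor, the adhesive protein of alpha granules, had log2 values of 13.69, 13.79 and 13.88 on arrays 1, 2 and 3 and rank 147; its second probe was not detected. Tal1 had 12.82, 13.27 and 13.29 and rank 258. Gata2, a GATA factor of stem cells and early megakaryocyte progenitors, had 12.82, 12.72 and 12.73 and rank 356.

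Pf4, which encodes the chemokine platelet factor 4 of alpha granules, had 12.54, 12.34 and 12.11 and rank 507. The ranges of Tal1 and Gata2 overlapped, both reaching 12.82 on array 1, and all Pf4 values lay below both, while all Vwf values lay above them. Itga2b, the integrin chain that pairs with Itgb3 to form the fibrinogen receptor, had 10.31 and 10.38 on arrays 1 and 2 and 12.36 on array 3. Its rank of 1446 (percentile 89.9) therefore rests on array 3, and without that array its percentile was 84.6. The other 4 markers lay at percentiles of 96.9 to 99.0 without array 3.

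**Figure D2:**
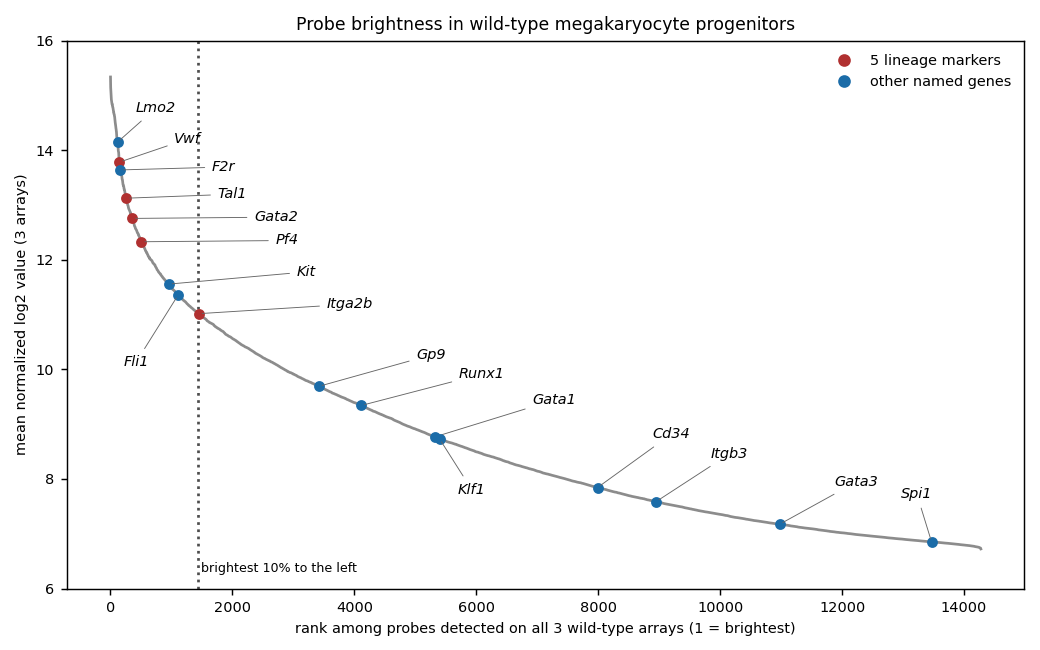
Mean normalized log2 value over the 3 wild-type arrays against rank for all detected probes (grey line), with 5 lineage markers in red and other genes in blue; the dotted line closes the brightest 10%. Vwf, Tal1, Gata2 and Pf4 lie between ranks 147 and 507, Itga2b at 1446, and Spi1 at 13467.

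Promoters of the platelet-specific granule and receptor genes are shown because these genes carry the lineage identity of the sample, and because Pf4 also names the promoter that drives Cre in all animals. The windows hold the 250 bases before the transcript start, from RefSeq on GRCm38.p6: chr5:90772185-90772434 on the plus strand for Pf4, chr11:102469884-102470133 on the minus strand for Itga2b, chr5:90768268-90768517 on the plus strand for Ppbp, chr16:30310782-30311031 on the minus strand for Gp5 and chr6:87777820-87778069 on the plus strand for Gp9. Capitals mark matches, on either strand, to the GATA motifs GATAAG and AGATAA, which can overlap each other, to GGAAGT (an ETS motif) and to TGTGGT (a RUNX motif).
Pf4: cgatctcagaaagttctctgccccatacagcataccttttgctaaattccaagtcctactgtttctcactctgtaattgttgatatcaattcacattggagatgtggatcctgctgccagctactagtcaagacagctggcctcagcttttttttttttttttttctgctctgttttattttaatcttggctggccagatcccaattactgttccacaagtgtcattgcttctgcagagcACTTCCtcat
Itga2b: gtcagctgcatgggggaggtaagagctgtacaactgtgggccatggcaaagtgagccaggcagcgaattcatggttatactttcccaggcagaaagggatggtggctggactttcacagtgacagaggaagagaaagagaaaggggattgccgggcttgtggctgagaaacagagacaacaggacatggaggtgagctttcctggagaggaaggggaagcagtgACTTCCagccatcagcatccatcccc
Ppbp: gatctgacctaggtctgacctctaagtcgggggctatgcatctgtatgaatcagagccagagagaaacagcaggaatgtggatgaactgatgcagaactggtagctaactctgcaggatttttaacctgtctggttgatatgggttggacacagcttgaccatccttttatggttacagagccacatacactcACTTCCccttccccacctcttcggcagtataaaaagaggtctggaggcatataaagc
Gp5: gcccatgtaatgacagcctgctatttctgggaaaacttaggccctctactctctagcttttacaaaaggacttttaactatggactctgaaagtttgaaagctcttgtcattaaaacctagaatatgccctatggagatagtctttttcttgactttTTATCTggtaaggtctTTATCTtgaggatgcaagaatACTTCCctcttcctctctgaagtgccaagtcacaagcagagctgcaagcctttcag
Gp9: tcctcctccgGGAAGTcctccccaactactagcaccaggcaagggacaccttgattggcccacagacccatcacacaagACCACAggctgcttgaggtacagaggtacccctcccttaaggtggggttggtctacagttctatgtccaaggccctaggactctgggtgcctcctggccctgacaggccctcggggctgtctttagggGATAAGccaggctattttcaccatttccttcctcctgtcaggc

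The 5 windows were chosen after their matches were seen, and each held GGAAGT, with its first base 10 bases before the start in Pf4, 26 in Itga2b, 57 in Ppbp, 56 in Gp5 and 240 in Gp9. Gp5 also held AGATAA at 93 and 77 bases before the start, and Gp9 held GATAAG at 43 and TGTGGT at 171. The window of Gp1bb held none of these 4 motifs. GGAAGT was in 12 of the 41 windows (29.3%) of detected megakaryocyte list genes with a single promoter, in 27.3% of those of the brightest 10%, in 24.4% of those of all detected genes, in 18.3% of those of genes not detected on all 3 arrays and in 20.2% of all 22862 windows. AGATAA was in 4 of the 41 windows, 9.76%, in 5.77% of those of detected genes and in 10.4% of all windows. For GATAAG these were 3 of the 41 windows, 7.32%, then 4.56% and 6.81%. TGTGGT was in 4 of the 41 windows, 9.76%, below its 10.6% of those of detected genes and 14.3% of all windows. A 6-letter match is a description of the window and not a binding site. Vwf, Tal1 and Gata2 have no single entry in the promoter table.

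The transcription factors of the lineage were nearly all detected and most were bright. Of the 22 listed factors with a probe, 21 were detected on all 3 arrays and 9 lay in the brightest 10%, where 12.8% of all detected genes lay; their median percentile was 84.9, against 60.5 for all detected genes. Lmo2, the bridging subunit of the SCL complex, was the brightest, with log2 values of 14.15, 14.29 and 14.01 and rank 116. Ldb1, which joins LMO2 to distant complexes, had 12.85, 12.95 and 12.90.

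The DNA-binding members of the SCL complex were spread over a wide span. Besides Tal1 and Gata2, the E protein gene Tcf3 averaged 9.91 ± 0.22 (SD, n = 3) and the E protein gene Tcf12 averaged 7.48 ± 0.09. A second detected probe of Tcf3 averaged 7.26, below Tcf12, so the order of these genes depends on the probe. Gata1, the GATA factor of maturing megakaryocytes and red cells, had 8.60, 8.56 and 9.15, at percentile 62.8. All Gata1 values lay more than 3 log2 units below all Gata2 values, on probes of different genes whose binding may differ. Lyl1, a close relative of Tal1, averaged 9.34 ± 0.22, and Cbfa2t3, a corepressor found in the SCL complex, had 10.25 and 10.09 on arrays 1 and 2 and 10.99 on array 3.

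Factors that act beside the complex included Nfe2, the basic leucine zipper subunit needed for platelet release, at 12.64, 12.53 and 12.47. Its small Maf partner Mafg averaged 10.15 ± 0.35, and the other listed partner, Mafk, was the single factor not detected. Cbfb, the partner of RUNX proteins, averaged 12.55 ± 0.36, while Runx1 had 9.23, 9.30 and 9.49, with its other 2 probes not detected on all 3 arrays. Fli1, the ETS factor of late megakaryocyte genes, had 11.28, 11.37 and 11.42.

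Meis1, a homeobox cofactor, had 11.61, 11.78 and 11.10 on its brightest probe, and its 4 detected probes averaged between 7.17 and 11.50. Mef2c, a MADS-box factor, averaged 11.93 on its brightest probe, 9.27 and 8.72 on a pair of other probes and was not detected on the last. Srf, the serum response factor of cytoskeletal genes, averaged 10.76 ± 0.03, the steadiest of the detected factors. Gfi1b, a repressor shared with red cells, averaged 9.82 ± 0.05, Etv6 averaged 8.95 ± 0.07, Hhex averaged 10.15 ± 0.20, and Myb, a factor of immature cells, averaged 8.19 ± 0.33.

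Factors of other lineages lay lower. Of 15 with a probe, 11 were detected, 0 lay in the brightest 10%, and the median percentile of the 11 was 23.1. With a detection p under 0.01, 6 were left, with a median of 38.0, beside 21 lineage factors with a median of 80.3. The brightest was Ikzf1, the Ikaros factor of lymphoid and other blood cells, at percentile 67.6, followed by Klf1, the red cell factor, with 8.60, 8.62 and 8.98 at 62.2. Klf1 and Gata1 values overlapped. Spi1, the PU.1 factor of myeloid and B cells, had 6.86, 6.82 and 6.87, at percentile 5.67, close to the lowest detected values of 6.70 to 6.73 on these arrays. Gfi1, Irf8, Pax5 and Hlf were not detected on all 3 arrays.

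**Figure D3:**
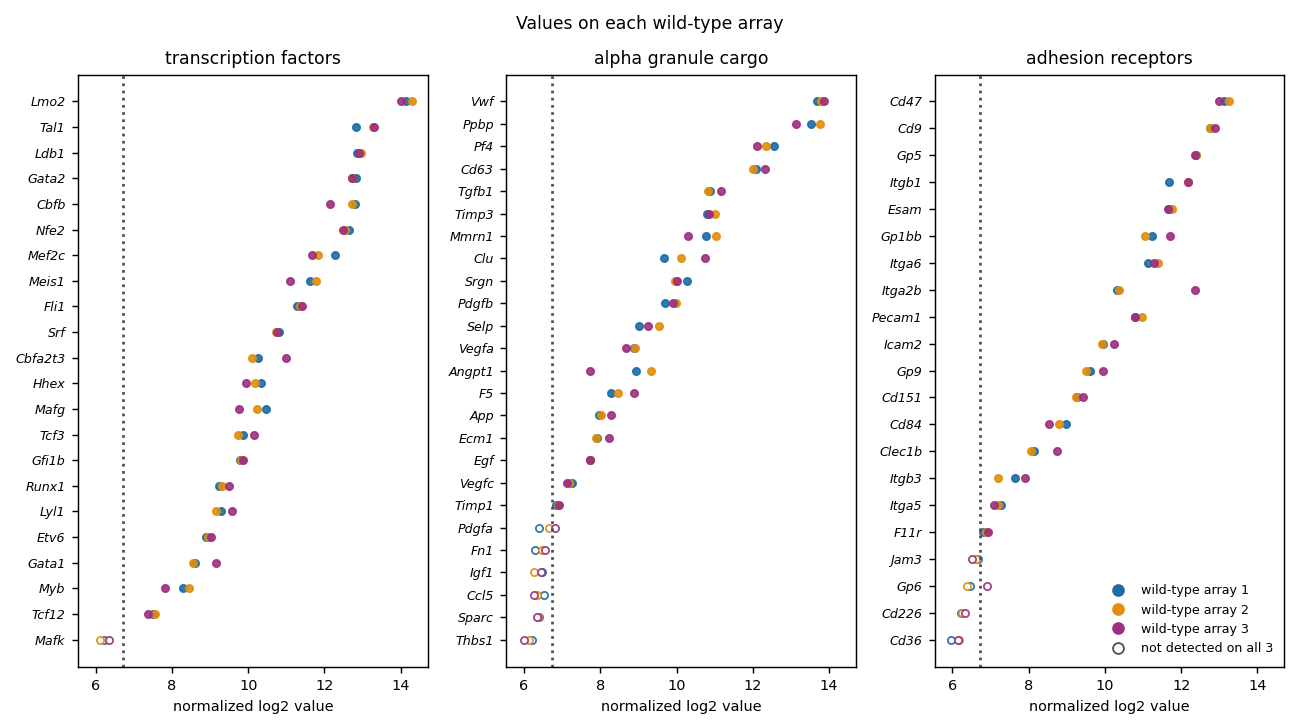
Normalized log2 values on the 3 wild-type arrays (colours) for the listed transcription factors, alpha granule genes and adhesion receptors, each panel ordered by mean; open circles are genes not detected on all 3 arrays and the dotted line is the highest of the arrays' lowest detected values. Most genes hold their place on all 3 arrays, and Itga2b and Angpt1 are the widest.

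Alpha granule genes covered nearly the whole range of brightness. Of 25 with a probe, 19 were detected and 4 lay in the brightest 10%, with a median percentile of 78.3. After Vwf the brightest was Ppbp, the precursor of the platelet chemokines of the beta-thromboglobulin group, with log2 values of 13.52, 13.75 and 13.13. Cd63, a granule membrane tetraspanin, averaged 12.14 ± 0.17. All Ppbp values lay above all Pf4 values.

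Of the growth factors stored in alpha granules, Tgfb1 averaged 10.96 ± 0.19, Pdgfb 9.86 ± 0.16, Vegfa 8.82 ± 0.12, Egf 7.73 ± 0.01 and Vegfc 7.19 ± 0.06. Pdgfa and Igf1 were not detected on all 3 arrays. Angpt1, an angiopoietin that acts on vessels and stem cells through TEK, had 8.93 and 9.33 on arrays 1 and 2 and 7.74 on array 3. Its second detected probe, at 7.32, 7.21 and 7.07, varied less, and its last probe was not detected. Mmrn1, the carrier of factor V in the granule, had 10.77, 11.04 and 10.30, and F5, factor V itself, had 8.28, 8.47 and 8.88.

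Selp, the P-selectin that appears on activated platelets, had 9.01, 9.53 and 9.24. Srgn, the proteoglycan that holds granule cargo, averaged 10.09 ± 0.17, and Timp3, a metalloproteinase inhibitor, averaged 10.88 ± 0.12. Clu, the chaperone clusterin, had 9.68, 10.12 and 10.73, higher on array 3 than on the others. Timp1, at 6.89 ± 0.03, was the dimmest detected member. Thbs1, Sparc, Fn1 and Ccl5 were not detected on all 3 arrays.

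Dense granule and secretion genes were detected in 25 of 27 cases, with 6 in the brightest 10% and a median percentile of 69.1. The brightest were Stxbp2, a syntaxin-binding protein of granule release, at 12.17, 12.36 and 12.23, and Dtnbp1, a subunit of the complex that builds lysosome-related organelles, at 12.04, 12.01 and 11.68. Rab27a, a small GTPase that docks granules, averaged 11.49 ± 0.08, and Vamp8, the platelet vesicle SNARE, averaged 11.29 ± 0.17. Rab27b, its close relative, and Lyst were not detected on all 3 arrays.

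Adhesion receptors had a median percentile of 88.5, which was 84.6 without array 3 and 75.1 by the median of each gene's detected probes. Of 21 with a probe, 17 were detected and 7 lay in the brightest 10%. Cd47, which signals against uptake by macrophages, averaged a log2 value of 13.13 ± 0.13 (SD, n = 3), and Cd9, a tetraspanin of the platelet surface, had 12.77, 12.75 and 12.89. The brighter Cd47 probe lay above Cd9 on every array, while the second Cd47 probe, at 12.18, 12.24 and 11.99, lay below Cd9 on every array.

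The receptor complex for von Willebrand factor was represented by 3 of its chains. Gp5 had 12.40, 12.38 and 12.37, the narrowest range of the detected adhesion receptors. Gp1bb had 11.24, 11.05 and 11.70 on its brighter probe and 6.71, 6.92 and 6.75 on its second, and Gp9 had 9.60, 9.51 and 9.96. Gp5 lay above both on every array. The place of Gp1bb against Gp9 depends on the probe, since by the median of its probes Gp1bb lay at percentile 67.2, below the 76.1 of Gp9.

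Among the integrin chains, Itgb1, the common beta chain, had 11.68, 12.17 and 12.17. Itga6, which pairs with it to bind laminin, had 11.13, 11.40 and 11.30 on its brightest probe, and its 4 detected probes averaged between 7.78 and 11.28. Itgb3, the partner of Itga2b, had 7.65, 7.20 and 7.91, at percentile 37.3. Itga5, a fibronectin receptor chain, averaged 7.20 ± 0.10. All Itgb3 values lay more than 2 log2 units below all Itga2b values, on probes of different genes.

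Esam, an endothelial and platelet junction molecule also used to sort stem cells, averaged 11.70 ± 0.05, Pecam1 10.85 ± 0.11, Icam2 10.04 ± 0.18, Cd151 9.32 ± 0.09 and Cd84 8.77 ± 0.23. Clec1b, the podoplanin receptor, had 8.13, 8.06 and 8.75, highest on array 3. F11r, a junction molecule, lay near the lowest detected values at 6.87 ± 0.07. Gp6, the collagen receptor, had 6.47, 6.38 and 6.92 and was not detected on all 3 arrays. Cd36, Jam3 and Cd226 were not detected on all 3 arrays either.

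Receptors for platelet agonists were detected in 10 of 13 cases, with a median percentile of 81.8 and 2 in the brightest 10%. By the median of each gene's detected probes that percentile was 70.0. F2r, a thrombin receptor of the protease-activated family, had log2 values of 13.63, 13.95 and 13.34, at rank 164. Its relatives F2rl2 and F2rl3, which carry the thrombin response of mouse platelets, averaged 10.54 ± 0.20 and 10.48 ± 0.10. All F2r values lay above all values of both relatives, whose ranges overlapped.

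Among the nucleotide receptors, P2ry1, the ADP receptor of platelet shape change, had 11.49, 11.54 and 10.92. P2rx1, an ATP-gated channel, averaged 10.43 ± 0.13 on its brighter probe and 7.34 on its second. P2ry14, a receptor for UDP-sugars, had 8.18, 8.02 and 7.48, lowest on array 3. P2ry12, the other ADP receptor, had 6.17, 6.32 and 6.26 and was detected on no array. Tbxa2r, the thromboxane receptor, averaged 9.92 ± 0.05, Cxcr4, the chemokine receptor that holds progenitors in the marrow, 8.90 ± 0.12, Ptger3, a prostaglandin receptor, 8.40 ± 0.05 and Htr2a, a serotonin receptor, 6.97 ± 0.05. Ptgir and S1pr1 were not detected.

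Cytokine receptors were detected in 7 of 15 cases, 46.7%, close to the 46.1% of all named genes. Kit, the stem cell factor receptor, had log2 values of 11.54, 11.31 and 11.82, and 1 of its other probes averaged 6.78 and the last was not detected. Il3ra averaged 9.41 ± 0.29, Il6ra 8.64 ± 0.12, Tek, the angiopoietin receptor, 8.64 ± 0.08 and Epor, the erythropoietin receptor, 7.83 ± 0.24. Ifngr1 and Ifngr2, the chains of the interferon gamma receptor, averaged 8.20 ± 0.10 and 7.65 ± 0.07. Il6st, Csf2rb, Csf2rb2, Csf3r, Flt3, Il9r, Lifr and Il7r were not detected on all 3 arrays.

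The signalling genes downstream of these receptors were detected in 25 of 27 cases, with 8 in the brightest 10% and a median percentile of 79.5. Rap1b, the small GTPase that switches platelet integrins on, had log2 values of 14.13, 14.01 and 13.82, at rank 130. Gnai2, a G protein subunit, averaged 12.29 ± 0.02, Btk, a kinase of collagen signalling, 12.29 ± 0.11, and Plcg2, the phospholipase it activates, 12.08 ± 0.14. The dimmest detected members were Syk, at 7.26 ± 0.16 (percentile 26.6), and Apbb1ip, at 7.15 ± 0.20 (percentile 22.2). Of the 25 detected genes, 18 lay at or above a percentile of 50. Rap1a and Grap2 were not detected.

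Cytoskeletal genes held the most places in the brightest 10% of any list, 11 of 23 detected. Zyx, a focal adhesion protein, had 14.29, 14.39 and 14.16, Tuba1b, an alpha tubulin, 14.04, 14.08 and 14.56, and Vasp, an actin regulator that platelets hold in quantity, 13.62, 13.69 and 13.75. Myh10, the nonmuscle myosin that megakaryocytes switch off as they become polyploid, was the dimmest detected member at 6.94 ± 0.13. Tmsb4x and Rhoa, which blood cells express widely, were detected on no array, so that a gene without a detected probe is not shown to be absent here.

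Eicosanoid genes were detected in 7 of 11 cases, with a median percentile of 59.9. Alox5ap, the activating protein of lipoxygenase, averaged 12.11 ± 0.32 and Tbxas1, thromboxane synthase, averaged 11.27 ± 0.12.

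**Figure D4:**
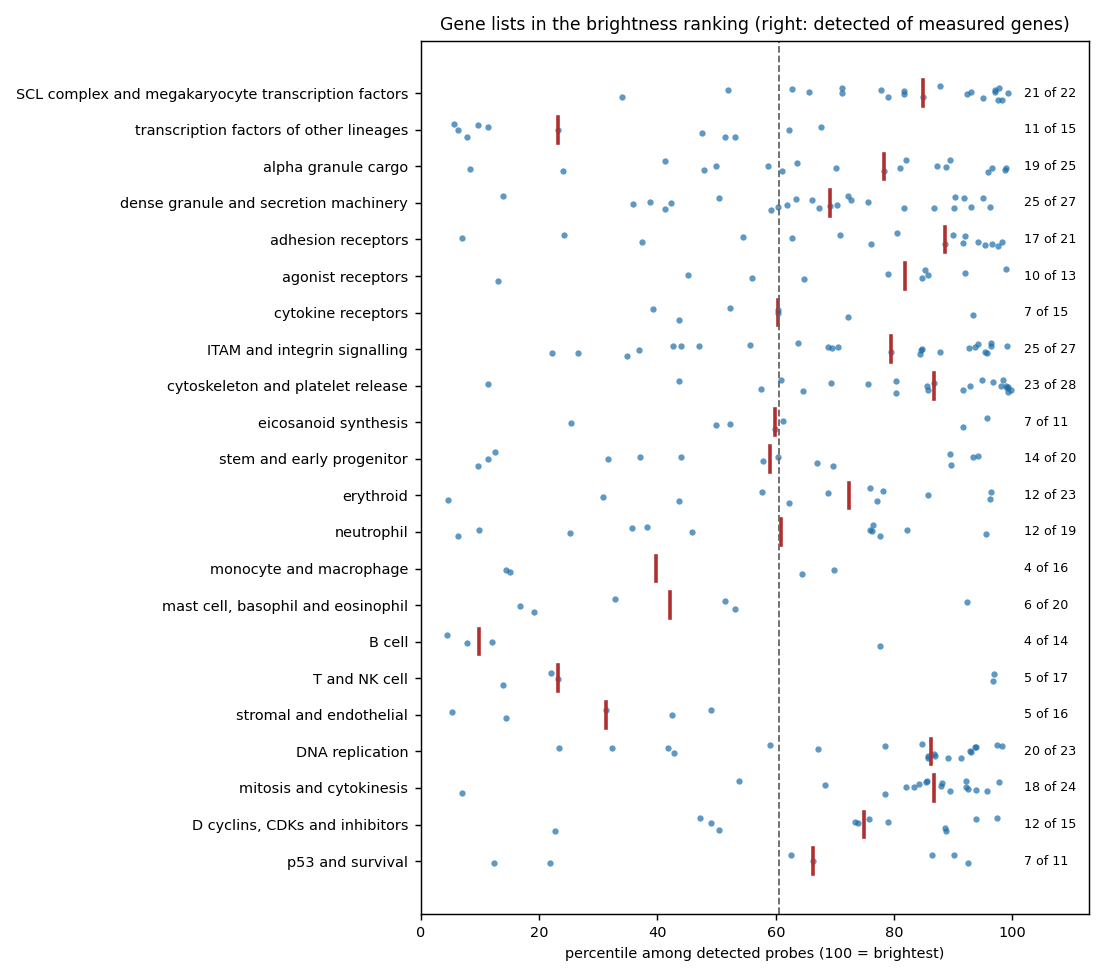
Percentile among detected probes (100 is the brightest) of each detected gene of 22 lists; red bars are list medians, the dashed line is the median of all detected genes (60.5), and the figures at the right give detected genes of those with a probe. The lists of lineage factors, adhesion receptors, cytoskeleton, DNA replication and mitosis have medians of 84.9 to 88.5, and the 4 detected genes of the B cell list have 9.90, set by 3 dim genes beside Cd79b.

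Most detected genes of the cell cycle lay high in the ranking. DNA replication genes were detected in 20 of 23 cases with 7 in the brightest 10% and a median percentile of 86.3, and mitosis and cytokinesis genes in 18 of 24 cases with 6 in the brightest 10% and a median percentile of 86.7. Mcm5, a subunit of the replicative helicase, had log2 values of 13.10, 13.22 and 13.07, and Mcm4 averaged 12.74 ± 0.24. Cenpa, the centromeric histone, had 12.79, 12.87 and 12.90, Prc1, a protein of the central spindle, 12.09 ± 0.19, Birc5, the survivin of the chromosomal passenger complex, 11.65 ± 0.08, and Plk1, a mitotic kinase, 11.34 ± 0.02.

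Among the D cyclins, Ccnd2 averaged 12.74 ± 0.09 and Ccnd1 averaged 10.88 ± 0.23. The inhibitor Cdkn2c averaged 9.92 ± 0.03, and Cdkn1a, the p53 target, had 7.22, 6.77 and 7.51, and Cdkn1b was not detected on all 3 arrays. By the median of its detected probes Ccnd1 lay at percentile 51.9, against 88.8 by its brightest probe. For Cdkn2c these percentiles were 46.1 and 79.0, and for Ccnd2 94.2 and 97.5. In the survival list 7 of 11 genes were detected, led by Mcl1, a survival protein of the BCL2 family, at 11.40 ± 0.13; Bcl2l1, which platelets need for their lifespan, averaged 7.14 ± 0.29.

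Stem and early progenitor genes were detected in 14 of 20 cases, with a median percentile of 59.1, near the 60.5 of all detected genes. Besides Esam and Kit, Pdzk1ip1 had 11.25, 10.74 and 10.89 and the early response factor Egr1 11.09, 10.58 and 11.29. Slamf1, a stem cell surface marker, averaged 9.04 ± 0.23. Cd34, a surface marker of early progenitors chosen after its values were seen, averaged 7.84 ± 0.08. Procr, Flt3, Thy1, Hlf, Cd48 and Adgrg1 were not detected on all 3 arrays.

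Red cell genes were detected in 12 of 23 cases, 52.2%, not far from the 46.1% of all named genes. Their median percentile was 72.3, against 60.5 for all detected genes, and 65.4 without array 3. Aqp1, a water channel, and Urod, a haem synthesis enzyme, were the brightest, at 12.30 ± 0.16 and 12.27 ± 0.13. Car2, a carbonic anhydrase, averaged 10.55 ± 0.35, and Gypc and Sptb, of the red cell membrane and its skeleton, averaged 9.77 ± 0.08 and 9.67 ± 0.05. Hba-a1, an alpha globin gene chosen after its values were seen, averaged 8.48 ± 0.28, at percentile 57.7. Hbb-b2, a beta globin gene, and Alas2, Slc4a1, Epb42, Ermap, Rhag, Rhd, Fech, Cpox, Trim10 and Kel were not detected on all 3 arrays. Globin genes have near-identical copies, so the probe may read more than 1 of them.

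Neutrophil genes were detected in 12 of 19 cases, 63.2%, against 46.1% of all named genes. Their median percentile was 60.9, close to the 60.5 of all detected genes, and 47.3 without array 3. Mpo, the myeloperoxidase of early granulocytes, had log2 values of 11.28, 12.18 and 12.59. Elane, neutrophil elastase, had 8.87, 9.77 and 10.47, and Ctsg, cathepsin G, had 8.97, 9.76 and 10.31. These 3 primary granule genes were lowest on array 1 and highest on array 3.

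The neutrophil list as a whole had no common order over the arrays. Of its 19 genes, 9 were highest on array 3, 8 were lowest there and 2 lay between. S100a8, a calcium-binding protein, had 9.82, 10.11 and 9.24, Ltf, the lactoferrin of secondary granules, had 7.93, 7.69 and 6.48, and Ngp had 7.29, 7.10 and 6.35. Camp, a secondary granule peptide chosen after its values were seen, had 8.39, 8.35 and 7.03. These 4 were lowest on array 3, while Csf3r, at 6.67, 6.63 and 6.93, and Cebpe, at 6.70, 6.92 and 6.96, were highest there. The summed linear values of all 19 genes were 8347, 11630 and 13235 on arrays 1, 2 and 3, of which Mpo gave 2485, 4638 and 6170.

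Of the mast cell, basophil and eosinophil genes 6 of 20 were detected. The summed linear values of all 20, detected or not, were 3461, 5228 and 7233. Prg2, the major basic protein of eosinophils, had 10.40, 11.51 and 12.19, which is 1348, 2915 and 4662 of those sums. Monocyte and macrophage genes were detected in 4 of 16 cases, and 10 of the 16, with Itgam, Adgre1 and Cd14 among them, were detected on no array. The summed linear values of all 16 were 2087, 2306 and 3055. Ly6c1, a surface antigen of monocytes and other cells, gave 255, 418 and 976 of them.

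Lymphoid and stromal genes were few. In the B cell list 4 of 14 genes were detected, at a median percentile of 9.90, and 10 were detected on no array. The summed linear values of all 14 were 2008 to 2069. Cd79b, a chain of the B cell receptor, had 9.79, 9.78 and 9.83, while Cd79a, its partner, was detected on no array. With a detection p under 0.01 Cd79b, at percentile 70.9, was the single B cell gene left. In the T and NK cell list 5 of 17 were detected, at a median percentile of 23.1 (49.0 for the 4 left under that stricter rule), and 12 on no array. The summed linear values of all 17 were 12501 to 12745 and came mostly from a pair of genes. Nkg7, a cytotoxic granule protein, averaged 12.46 ± 0.03, and Cd8b1 averaged 12.44 ± 0.06 on 1 probe with its other 2 probes detected on no array. The defining T cell genes Cd3e, Cd3d, Cd3g, Cd4 and Zap70 were detected on no array. In the stromal and endothelial list 5 of 16 were detected, the brightest being Tie1 at 8.06 ± 0.26, and Cdh5, Cxcl12, Col1a1 and Col1a2 were not detected on all 3 arrays. What part the neutrophil, eosinophil and red cell genes have in the values of the megakaryocyte genes was not tested.

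A floor for these counts came from the olfactory and vomeronasal receptor genes, which belong to sensory tissue. Of 1156 with a probe, 68 were detected, 5.88%, at a median percentile of 7.37, and 63 of the 68 lay below the percentile of 25. The highest lay at percentile 46.8. By that measure 1 of the 14 B cell genes, Cd79b, and 2 of the 17 T and NK cell genes, Nkg7 and Cd8b1, lay at or above a percentile of 50, against 20 of the 22 lineage factors and 0 of the olfactory genes. So did 9 of the 23 red cell genes, 8 of the 20 stem and early progenitor genes, 6 of the 19 neutrophil genes, 3 of the 20 mast cell, basophil and eosinophil genes, 2 of the 16 monocyte and macrophage genes and 0 of the 16 stromal and endothelial genes. The share of all named genes at or above that percentile was not counted. Of all named genes 46.1% were detected, at a median percentile of 60.5, so most detected genes also passed a percentile of 50. A count above the olfactory floor is therefore not by itself an excess over all named genes.

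The widest spread over the 3 arrays was in genes of several kinds. Csrp3, a muscle LIM protein gene, had log2 values of 8.02 and 7.91 on arrays 1 and 2 and 10.81 on array 3. The heat shock genes Hspa1a, with 8.99, 9.28 and 6.90, and Hspb1, with 8.71, 9.38 and 7.25, were lowest on array 3. Itga2b, Ly6c1, Prg2, Elane, Eif3b and Lgals1 were highest on array 3, and Hnrnpa2b1, Angpt1 and Xist were lowest there.

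Xist, the RNA of the inactive X chromosome, had 10.55, 10.90 and 9.25. The Y chromosome gene Eif2s3y had 7.37, 7.64 and 8.22, Uty had 6.90, 7.08 and 7.16, and Kdm5d had 6.56, 6.37 and 6.87 and was not detected on all 3 arrays. Array 3 was thus lowest for Xist and highest for each of these Y chromosome genes, and the labels do not give the sex of the animals. Of the megakaryocyte genes, Gp5, Gata2 and Vwf had SDs of 0.02, 0.06 and 0.09 log2 units over the 3 arrays. The other lineage markers were wider, with SDs of 0.22 for Pf4, 0.27 for Tal1 and 1.16 for Itga2b.

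**Figure D5:**
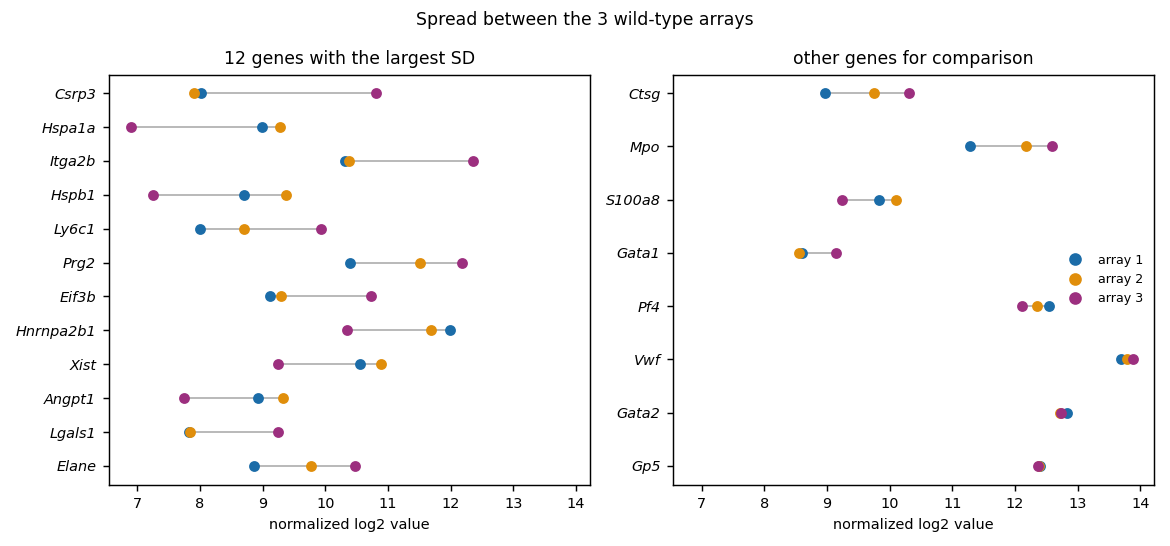
Normalized log2 values on the 3 wild-type arrays (colours; grey lines span the range) for the 12 detected genes with the largest SD (left) and 8 genes for comparison, chosen after their values were seen (right). Array 3 lies apart in Csrp3, Hspa1a and Itga2b, while Gp5 spans 12.37 to 12.40.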

How the data were processed

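Per the labels, RNA of the sorted cells was amplified with a biotin label, and expression was read on Illumina mouse bead arrays. The authors deposited log2 signals that are not normalized, with a detection score for each probe, and a second table of normalized log2 values. The deposited score rises with the signal (rank correlation at least 0.997), and 1 minus that score served as the detection p-value. Every normalized column had a median of 6.46, and sorted columns differed by at most 0.0768. Limma is named, without a version, in the submitters' processing notes. Which scanner software and probe summarization were used was not given in the sources used here. Equal distributions hide any array-wide shift, and a detection limit set per array keeps dim probes near background.

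Samples were grouped by their titles. Ranks, percentiles and SDs were computed with Python 3.11.15 (pandas 2.3.3), and neqc and quantile alternatives with R 4.3.3 and limma 3.58.1. The platform annotation gave 29976 of 46632 probes 1 symbol, 10 several and 16646 none; of the detected probes 3316 were unnamed. Of 460 listed names, 407 had a probe. No test was run, since 1 group was described and 3 arrays, whose replicates may be technical, limit the precision. The 6 deposited signal and detection columns of the other arrays were not used. Their normalized columns entered the comparison of sorted columns above. Genes named were drawn from the markers, the brightest genes, members of the lists, the 12 detected genes with the largest SD and sex-linked genes. Of the lists, mostly the brightest detected members were named, and the dimmest detected and the undetected members for some lists only. Members and lists were chosen with earlier results of these data known. Alternatives were other detection rules, non-normalized, neqc (offset 16) and 3-array quantile values, the median of a gene's probes and leaving out each array. The ranking was tested on simulated data.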

Additional observations from a re-analysis of the deposited data

How the results depend on the processing

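The ranking was recomputed under other settings. With neqc, non-normalized and 3-array quantile values, 0 of 23 list medians and 0 of 275 gene percentiles moved by more than the spread between arrays, but these settings nearly keep the order of probes within an array, so the ranking had little room to move. The counts of detected probes and genes stayed within 10987 to 17614 and 6802 to 9457 over the detection rules and the arrays left out. With a detection p under 0.01 the median percentile was 80.3 for lineage factors, 73.6 for alpha granule genes, 86.0 for adhesion receptors and 80.1 for agonist receptors, and with detection on at least 1 array it was 87.7 for lineage factors and 85.3 for agonist receptors; these rules change which probes are ranked. Lists with few detected genes moved most: with detection on at least 1 array the B cell median was 26.2 and the T and NK cell median 37.6, and with a p under 0.01 they were 70.9, from 1 gene, and 49.0, from 4, with 38.0 for factors of other lineages. With the median of a gene's detected probes in place of the brightest, it was 81.7 for lineage factors, 75.1 for adhesion receptors and 70.0 for agonist receptors. The median SD was 0.182 with non-normalized values and 0.170 with neqc. Leaving out 1 array at a time gave a median SD of 0.0671 to 0.114 and an adhesion median of 84.6 to 89.0, the lowest of each without array 3. Single genes can depend on the probe: by the median probe Kit lay at percentile 68.8, Mef2c at 70.2 and Meis1 at 67.0. No paired analysis was possible because only the wild-type group was described. Probes near the detection limit have little room to vary, and their low SD (0.0659 in the dimmest 10%, against 0.117 in the brightest) does not show precise measurement.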

Other observations

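The brightest genes of the sample were those of protein synthesis and chromatin. Of 52 cytosolic ribosomal protein genes with a probe 48 were detected, at a median percentile of 99.0, and 32 were among the 100 brightest genes; Rps9 averaged 15.20 ± 0.06 and Rpl13 15.04 ± 0.06 (log2, SD, n = 3). Histone genes were detected in 46 of 55 cases, with 8 among the 100 brightest and H2ac22 the brightest of all at 15.34, although histone genes are near-identical copies and a probe may read several. Eef1g and Eef1a1, elongation factor genes, averaged 14.98 ± 0.03 and 14.88 ± 0.04.

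Genes of energy supply and protein turnover also lay high. Of 85 respiratory chain and ATP synthase genes 73 were detected, at a median percentile of 94.7, led by Atp5b at 14.70 ± 0.06. Proteasome subunits were detected in 32 of 39 cases at a median percentile of 95.1, and mitochondrial ribosomal proteins in 68 of 76 cases at 86.0. Rab GTPases, which direct vesicle traffic, were detected in 41 of 56 cases at 61.2, close to the 60.5 of all detected genes, and solute carriers in 139 of 323 cases at 47.2. Keratins, which belong to epithelia, were detected in 3 of 43 cases.

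Of the 4581 detected genes with several probes, 3341 had at least 1 probe that was not detected on all 3 arrays. The share of detected probes without a gene name was 19.8% in the brightest 10% and 34.9% in the dimmest.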
